A study of Populus alba x Populus glandulosa with 18 samples.

Results

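The 2x2 design of the knockouts asks whether losing bHLH58 and bHLH151 together changes the root transcriptome of poplar by the sum of what each loss does alone. Its members are the gene IDs of the deposited table with at least 1 FPKM (fragments per kilobase of transcript, scaled to the library total) in at least 3 of the 18 libraries, which gave 40951 of 71159 IDs. The measure is the non-additive contrast, taken on log2(FPKM + 1): the double knockout plus wild type, minus each single knockout. A contrast of 0 means that the log2 changes of the single knockouts add up in the double. A positive value means that the double lies above that sum and a negative one that it lies below.

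All groups are roots of the poplar 84K, which is a Populus alba x Populus glandulosa hybrid. The contrast used 12 libraries, 3 each of wild type (WT), bhlh58-KO (line 6), bhlh151-KO (line 40) and bhlh58/151-KO (line 32, called the double knockout here). The other 6 libraries, 3 each of the overexpression lines bHLH58-OE (line 20) and bHLH151-OE (line 17), have no weight in the contrast. They did count in the filter and in the estimate of the spread behind the calls, so they are not fully separate from the choice of called IDs. Each knockout and overexpression genotype was 1 line, so an effect of the genotype and an effect of that line cannot be told apart. The labels give no plant age, no growth conditions, no promoter for the overexpression lines and no edited allele for the knockouts. Whether replicate libraries are separate plants is not stated either, and p-values therefore measure the spread between libraries, which may be technical.

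Basic helix-loop-helix (bHLH) proteins are transcription factors that bind DNA as dimers, either with themselves or with other members of the family. Members can therefore act in one complex, stand in for each other or compete for partners. Genetics reads such relations from double mutants. Where either loss alone already gives the full change, the double looks like both singles; where the genes stand in for each other, the double alone changes; and where one loss cancels the other, a change of a single mutant is missing in the double. These arrangements are described here as patterns of 4 group means, without a statement on mechanism. The table pairs no ID with a gene name. The edited genes, other members of the family and the markers of root cell types could for that reason not be looked up, and gene functions are not given.

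Within groups, Pearson correlations between libraries over the tested IDs ran from 0.982 to 0.987 in the 12 libraries, and between groups from 0.918 to 0.977. Library depth is unknown, since FPKM values carry no counts. Each library had 36450 to 38499 IDs with at least 1 FPKM, the lowest numbers (36450 to 36911) in bhlh151-KO. At the edge of the filter, 640 IDs reached 1 FPKM in exactly 3 libraries and entered, while 821 reached it in exactly 2 and did not. The median absolute contrast was 0.29 for the first and 0.27 for the second, so IDs beside the edge had contrasts of like size.

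The double knockout departed from the sum of the single knockouts in 12003 of the 40951 IDs, or 29.3% (limma, Benjamini-Hochberg adjusted p under 0.05, called below). Of these, 6494 lay above the sum (15.9% of the tested IDs) and 5509 below it (13.5%). The median absolute contrast was 0.28 over all tested IDs and 0.70 over the called ones, with a median standard error of 0.17. At 2-fold or more, 1517 called IDs lay above and 1348 below. With a pseudocount of 0.1 in place of 1 these counts were 2633 and 1986. At 4-fold or more, with a pseudocount of 1, there were 136 and 114, and at 8-fold or more 13 and 15. In roots as a whole, fewer cells of a type and less RNA per cell cannot be told apart in any of these values. The side with more calls depended on scaling. Calls below the sum made up 45.9% on the deposited values. The share was 54.6% with median-of-ratios scaling, 49.3% when quantiles were equalized and 44.6% in TPM. Median-of-ratios scaling moved the median change of all IDs in bhlh151-KO against WT from -0.11 to 0.0007, and the median contrast from 0.04 to -0.02.

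The share called rose with the level of the transcript. It was 14.7% of 2887 IDs with a mean under 1 FPKM, 23.3% of 11980 IDs between 2 and 5 FPKM, 43% of 9034 IDs between 10 and 50 and 64.5% of 1863 IDs at 50 or more. The standard error fell along the same bins, from a median of 0.24 in the first to 0.096 in the last. The median absolute contrast was 0.30 in the lowest bin, 0.26 between 5 and 10 FPKM and 0.42 in the highest. The most abundant transcripts thus had both the smallest median error and the largest median contrast. Additivity on the log2 scale is a statement about products of FPKM values. Asked on the linear FPKM scale, the same difference of group means had the same sign in 12003 of the 12003 called IDs. The sign differed in 893 of all tested IDs, of which the lowest adjusted p was 0.0948.

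**Figure D1:**
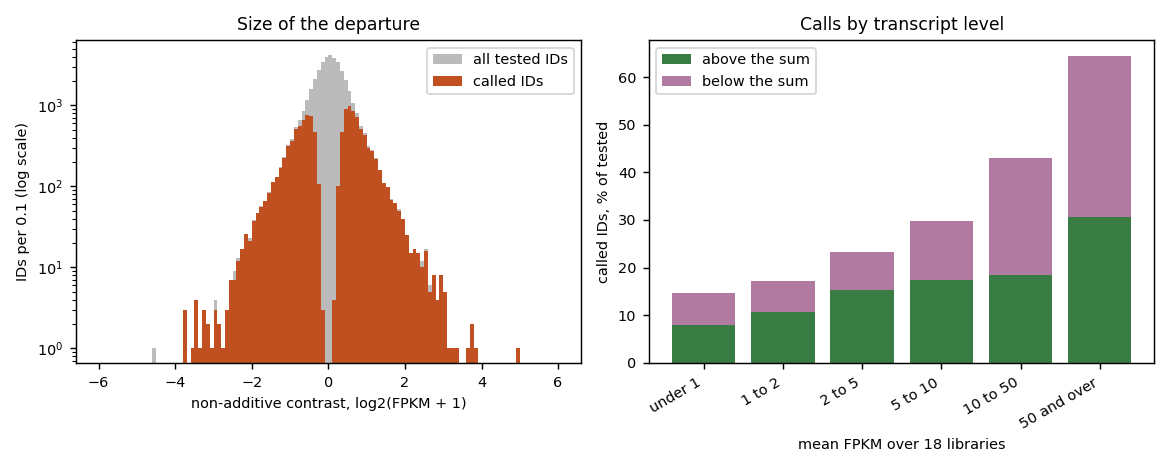
Left, number of IDs (log axis) by the non-additive contrast in log2(FPKM + 1), for all 40951 tested IDs in grey and the 12003 called IDs in orange. Right, called IDs as a percentage of tested IDs by mean FPKM over the 18 libraries, split into above and below the sum; the share runs from 14.7% under 1 FPKM to 64.5% at 50 FPKM and over.

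The contrast is the same number seen from either gene. It is the effect of bHLH58 loss in bhlh151-KO roots minus its effect in WT roots, and equally the effect of bHLH151 loss in bhlh58-KO roots minus its effect in WT roots. The 2 effects of one loss use different libraries, so they can be set side by side without a shared control. Loss of bHLH58 changed 9158 IDs in WT (22.4%), 5264 upward (12.9%) and 3894 downward (9.51%). In bhlh151-KO it changed 10526 (25.7%), 6419 upward (15.7%) and 4107 downward (10%). Downward calls in bhlh151-KO were 39% of the total on the deposited values and 52% with median-of-ratios scaling, so the larger side there depends on scaling. Of the IDs called in both, 998 moved the same way and 2735 moved in opposite directions. The opposite IDs were 29.9% of the calls in WT and 26% of those in bhlh151-KO. They divide into 1119 IDs that were higher upon loss of bHLH58 in WT and lower in bhlh151-KO, and 1616 with the reverse order. All 2735 were also called in the non-additive contrast. This follows from the choice of IDs, since the contrast is the difference between both effects, and is not separate evidence. Over the 40951 IDs the Pearson correlation of both effects was -0.18 and Spearman's rho -0.19, a description over IDs that share libraries and are not replicates. The same-way count ranged from 749 to 1000 and the opposite count from 2179 to 2737 over the alternatives, so opposite moves outnumbered same-way moves in each of them.

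Loss of bHLH151 behaved differently in size. It changed 19828 IDs in WT (48.4%) but 3722 in bhlh58-KO (9.09%), and the second count was 2353 without double-knockout replicate 2 and 2431 without bhlh58-KO replicate 2. In WT 7209 IDs rose (17.6%) and 12619 fell (30.8%), and in bhlh58-KO 1562 rose (3.81%) and 2160 fell (5.27%). The larger side turned with scaling in both backgrounds: downward calls were 63.6% in WT and 58% in bhlh58-KO on the deposited values, and 46.6% and 35.8% with median-of-ratios scaling. With equalized quantiles they were 52.4% and 50%. The SD of the log2 effect over IDs was 0.55 in WT and 0.25 in bhlh58-KO, with the same median standard error of 0.12. IDs called in both backgrounds numbered 1909 with the same direction and 608 with opposite directions. The same-way count was 1252 without bhlh58-KO replicate 2, and the opposite count was 363 without bhlh58-KO replicate 3 and 364 without double-knockout replicate 2. The same-way IDs were 9.63% of the calls in WT and 51.3% of those in bhlh58-KO. Another 17311 IDs were called in WT and not in bhlh58-KO, and for 9603 of them the difference itself passed the test of the non-additive contrast. The remaining ones are not shown to differ between backgrounds. The Pearson correlation over IDs was 0.23 and Spearman's rho 0.21. Where bHLH58 was already lost, loss of bHLH151 thus came with smaller changes than in WT.

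**Figure D2:**
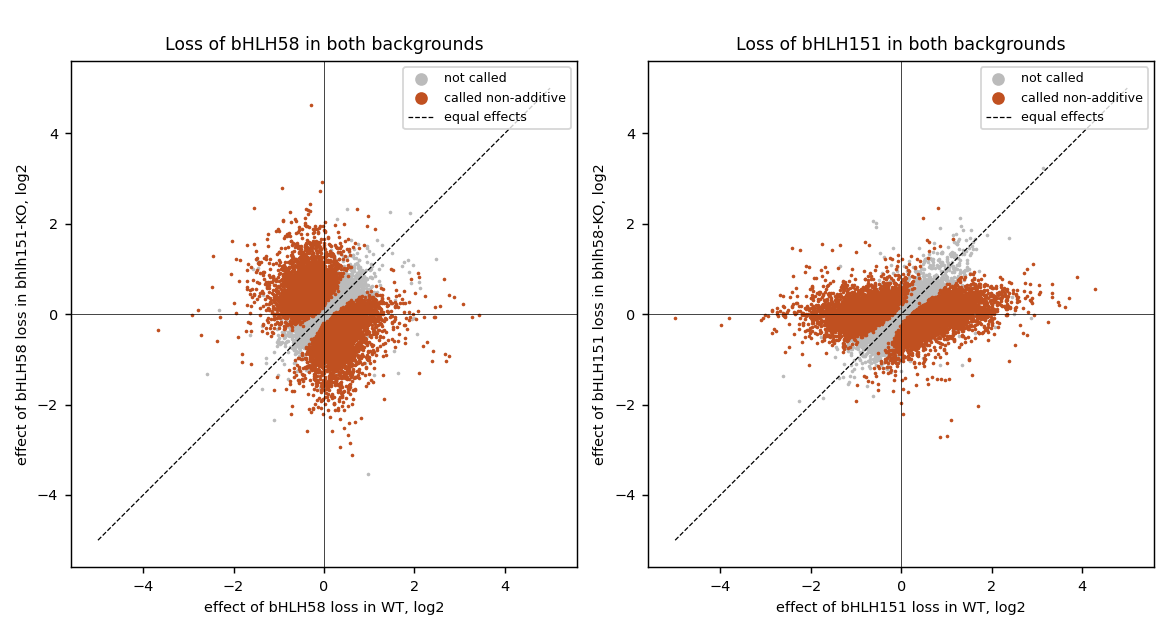
Each point is 1 of the 40951 tested IDs, with the log2 effect of one loss in WT on the x axis and in the other knockout on the y axis; points on the dashed line have equal effects, and orange points (drawn on top) are called in the non-additive contrast. For bHLH58 (left) orange points fill the quadrants of opposite sign, where 2735 IDs were called in both backgrounds; for bHLH151 (right) the cloud is wide along x (SD 0.55) and narrow along y (SD 0.25).

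On the deposited values, the double knockout was closer to bhlh58-KO than to bhlh151-KO in most IDs. The single knockouts differed from each other in 15111 IDs (36.9%; limma adjusted p under 0.05). In 10934 of these (72.4%) the double lay between them, in 3167 it lay beyond bhlh58-KO and in 1010 beyond bhlh151-KO. On a scale with bhlh58-KO at 0 and bhlh151-KO at 1, the double stood at a median of 0.298 (quartiles 0.0476 and 0.577). It was nearer to bhlh58-KO in 10447 (69.1%). Among all tested IDs 58.2% were nearer to bhlh58-KO. The single knockouts set both the scale and, through the test between them, the choice of the 15111 IDs. Whether these positions of the double depend on scaling or on single libraries was not tested.

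A called ID can arise in several ways, and 5 arrangements of 2 levels give a contrast other than 0. Either WT, bhlh58-KO, bhlh151-KO or the double knockout stands apart from the other 3 groups, or both single knockouts stand apart from WT and the double. An ID was said to follow an arrangement that holds at least 0.9 of the sum of squares between its 4 group means. Of the called IDs, 4258 (35.5%) followed one, beside 25.8% of all tested IDs. The other 7745 had graded means that no arrangement described at that level. The arrangements are a description and carry no test.

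bhlh151-KO standing apart was the most frequent arrangement. It held 2359 called IDs (19.7% of the calls), and 766 of the 1100 IDs that followed an arrangement at 2-fold or more. WT apart held 1149 (9.57%), both single knockouts apart 494 (4.12%), bhlh58-KO apart 167 (1.39%) and the double knockout apart 89 (0.741%). The percentages for each arrangement so far are of all calls. Of the 4258 called IDs that followed an arrangement, bhlh151-KO apart made up 55.4% and WT apart 27%. Among all tested IDs that followed one, the shares were 40.8% for bhlh151-KO and 30.7% for WT. They were 9.91% for both singles, 11.3% for bhlh58-KO and 7.34% for the double. Read as the nearest arrangement with no minimum, bhlh151-KO apart held 50.3% of the called IDs, beside 37.4% of all tested IDs. On that base WT apart held 30.1% beside 29.8%, and both singles apart 12.3% beside 7.57%. For bhlh58-KO apart it was 4.54% beside 14.5%, and for the double apart 2.76% beside 10.6%. Calls in which the double knockout alone left the level of the other 3 groups were therefore few. The order of the arrangements by count was the same with a minimum of 0.8, at 4218, 2205, 1071, 339 and 199 IDs.

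**Figure D3:**
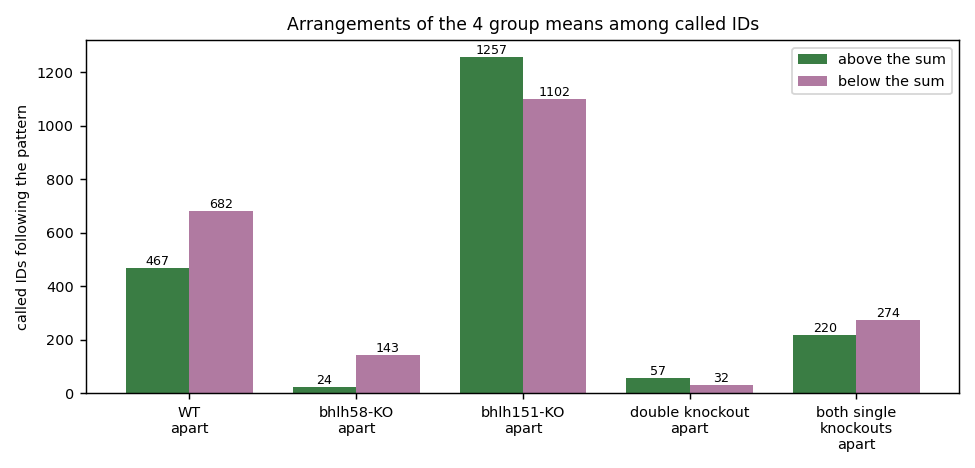
Number of called IDs (y axis, linear from 0) that follow each of 5 arrangements of the 4 group means, split by the sign of the contrast. bhlh151-KO apart holds 1257 and 1102 IDs, and the double knockout apart 57 and 32.

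In the arrangement with bhlh151-KO apart, the level that WT, bhlh58-KO and the double share is left by one line. The 1257 IDs above the sum were lower in bhlh151-KO, by a median of -0.70 on the log2 scale. The 1102 below the sum were higher there, by a median of 0.83. The balance between these directions turned with scaling. IDs higher in bhlh151-KO were 46.7% on the deposited values, 61% with median-of-ratios scaling and 57.4% with equalized quantiles. The rule places WT, bhlh58-KO and the double near one level in these IDs, so their closeness is not a result.

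PAxG05Ag0135100 was the ID of this arrangement with the largest contrast above the sum, among 314 that met the naming rule. It had 38.6, 34.3 and 36.9 FPKM in WT, 29.7, 29.2 and 30.1 in bhlh58-KO, 0.0493, 0.0742 and 0.430 in bhlh151-KO, and 28.2, 25.8 and 29.6 in the double knockout. The bhlh151-KO libraries were near 0 and all other libraries above 25. The naming rule required libraries of the level apart not to overlap those of the remaining knockout and WT groups. Such separation is therefore not a result for any named ID, here or below. The contrast was 4.91 (SE 0.13, limma adjusted p = 1.73e-14). Both overexpression lines were at the common level, with 29.8 to 31.4 FPKM in bHLH151-OE and 33.3 to 34.7 in bHLH58-OE.

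NewGene_1461, an ID without a place in the PAxG numbering, had the largest contrast below the sum among 361. It had 2.14, 1.01 and 1.46 FPKM in WT, 2.88, 2.55 and 3.08 in bhlh58-KO, 48.0, 47.8 and 46.4 in bhlh151-KO, and 4.59, 4.36 and 4.91 in the double knockout. Values in bhlh151-KO were far above all others. The double was also higher than bhlh58-KO (0.55, limma adjusted p = 0.00656). The contrast was -3.73 (SE 0.17, limma adjusted p = 9.71e-12). In bHLH151-OE the ID stood at 13.2, 15.7 and 12.7 FPKM, between both levels.

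Over all IDs of this arrangement the overexpression lines, whose means do not enter the contrast or the arrangement, stood at different positions. On a scale with the common level at 0 and bhlh151-KO at 1, bHLH58-OE had medians of -0.0722 for the IDs low in bhlh151-KO and -0.0198 for those high in it, that is, at the common level. bHLH151-OE had medians of 0.304 and 0.477, toward the knockout of the same gene. Of the 1257 IDs low in bhlh151-KO, 308 (24.5%) were nearer to bhlh151-KO in bHLH151-OE and 14 (1.11%) in bHLH58-OE. Of the 1102 IDs high in bhlh151-KO, the counts were 519 (47.1%) and 11 (0.998%). A lean of bHLH151-OE toward the level apart was not particular to this arrangement. With the double apart its medians were 0.447 above the sum and 0.357 below it. With both single knockouts apart they were 0.386 and 0.312, and with bhlh58-KO apart -0.0627 and -0.103.

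WT apart is the arrangement in which each single loss already gives the level of the double. The 682 IDs below the sum were higher in all 3 knockouts than in WT, where they lay at a median of -0.58 from the knockout level. The 467 above the sum were lower in the knockouts, with WT at a median of 0.59. WT is labelled wild type and all other groups are knockout or overexpression lines, so loss of either gene and having been made into such a line cannot be told apart from these 4 groups alone.

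The overexpression lines were placed on the same scale. With the knockout level at 0 and WT at 1, bHLH58-OE stood at a median of 0.614 in the IDs lower in the knockouts and 0.620 in those higher. It was nearer to WT in 310 of 467 (66.4%) and 451 of 682 IDs (66.1%). bHLH151-OE stood at medians of 0.255 and 0.474, and was nearer to WT in 24% and 47.1%. Both overexpression lines were thus displaced from WT toward the knockouts in most of these IDs, bHLH58-OE less than bHLH151-OE. WT means enter the contrast and the arrangement and those of the overexpression lines do not, and how much of the distance comes from that choice was not tested. Positions of the overexpression lines, in this and the other arrangements, were taken on the deposited values alone. Their dependence on scaling was not tested.

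PAxG06Gg0057900 had the largest contrast below the sum among 94. It had 7.91, 2.82 and 4.60 FPKM in WT, 49.0, 47.3 and 96.6 in bhlh58-KO, 59.5, 79.9 and 70.7 in bhlh151-KO, and 93.9, 67.2 and 50.5 in the double knockout. Every knockout library was above every WT library, a separation that the naming rule required, and the ranges of the 3 knockouts overlapped. Its contrast was -3.45 (SE 0.62, limma adjusted p = 0.000914). The effect of bHLH58 loss was 3.42 in WT and -0.02 in bhlh151-KO. bHLH58-OE was at 8.77, 2.23 and 8.27 FPKM, overlapping WT. bHLH151-OE was at 31.7, 21.0 and 24.9 FPKM, above every WT library and below every knockout library.

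PAxG11Gg0025800 had the largest contrast above the sum among 53. It had 7.98, 5.69 and 6.48 FPKM in WT. In the 9 knockout libraries it was listed at 0 in 5, and the others had 0.0291 in bhlh58-KO, 0.180 and 0.0189 in bhlh151-KO and 0.174 in the double. The contrast was 2.91 (SE 0.18, limma adjusted p = 3.62e-10), and 5.86 with a pseudocount of 0.1 (limma adjusted p = 3.16e-07). This ID separated the overexpression lines, with 0.106, 0.0656 and 0.0777 FPKM in bHLH58-OE and 29.0, 34.6 and 37.3 in bHLH151-OE.

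**Figure D4:**
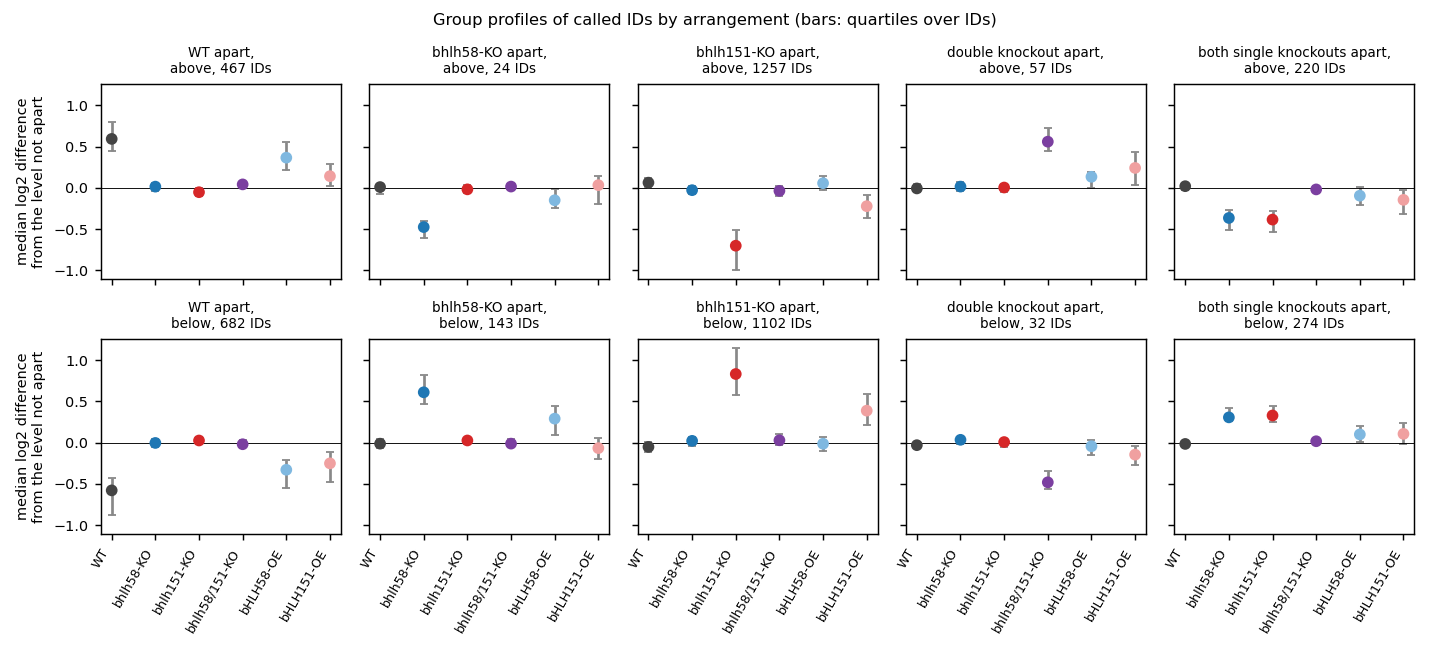
Median log2 difference of each of the 6 groups from the level that is not apart, over the called IDs that follow each arrangement (columns) above or below the sum (rows); bars span the quartiles over IDs. bHLH151-OE leans toward bhlh151-KO where that line stands apart (medians -0.22 and 0.39), while bHLH58-OE stays near 0 (0.06 and -0.01). Where the double knockout stands apart, bHLH151-OE leans toward it as well (0.24 and -0.15).

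Both single knockouts apart describes IDs for which the double is back at the WT level. The 274 IDs below the sum were higher in bhlh58-KO (median 0.31) and in bhlh151-KO (0.33) than in WT and the double. The 220 above the sum were lower, by medians of -0.37 and -0.39. The larger side depended on scaling. IDs below the sum were 55.5% on the deposited values and 49.2% with median-of-ratios scaling. They were 52% with equalized quantiles and 60.3% in TPM. Both singles add to the contrast here, so a contrast of a given size needs a smaller change in each.

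PAxG10Ag0008200 had the largest contrast above the sum among 24. It had 18.1, 13.1 and 14.8 FPKM in WT, 4.06, 5.90 and 4.45 in bhlh58-KO, 4.24, 5.16 and 3.04 in bhlh151-KO, and 9.73, 13.9 and 9.29 in the double knockout. The 6 single-knockout libraries lay below all 6 others, a separation that the naming rule required, and the double overlapped WT in 1 library. The contrast was 2.71 (SE 0.25, limma adjusted p = 9.89e-08). Loss of bHLH58 lowered the ID in WT (-1.49, limma adjusted p = 6.97e-06) and raised it in bhlh151-KO (1.22, limma adjusted p = 2.69e-05).

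PAxG03Gg0145300 had the largest contrast below the sum among 13. It had 8.05, 8.01 and 8.65 FPKM in WT, 13.5, 15.1 and 15.5 in bhlh58-KO, 15.1, 14.4 and 13.3 in bhlh151-KO, and 9.86, 7.24 and 8.50 in the double knockout. The single knockouts overlapped each other. Neither overlapped WT or the double, which the naming rule required. The contrast was -1.45 (SE 0.15, limma adjusted p = 6.31e-07), with 0.76 for loss of bHLH58 in WT and -0.69 in bhlh151-KO. bHLH151-OE, at 8.63, 7.86 and 8.68 FPKM, overlapped WT. bHLH58-OE, at 12.3, 12.0 and 8.93 FPKM, was above every WT library.

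bhlh58-KO apart was uneven in direction. Of 167 called IDs, 143 were higher in bhlh58-KO (median 0.61 from the common level) and 24 lower (median -0.48). All tested IDs that followed this arrangement were uneven as well, at 958 higher and 231 lower. The unevenness is therefore not particular to the called IDs. Among called IDs the share higher, 85.6% on the deposited values, was 71.5% with median-of-ratios scaling, at 93 higher and 37 lower. bHLH58-OE stood toward the knockout of the same gene, at a median of 0.458 of the distance for the 143 IDs, where bHLH151-OE was at -0.103. With both single knockouts apart, bHLH58-OE also stood toward them, at medians of 0.238 above the sum and 0.320 below it.

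PAxG12Ag0120900 led the 10 eligible IDs below the sum. It had 2.94, 2.95 and 1.73 FPKM in WT, 10.5, 9.19 and 9.34 in bhlh58-KO, 2.25, 5.03 and 3.34 in bhlh151-KO, and 2.41, 2.07 and 3.45 in the double knockout. The bhlh58-KO libraries lay above all 9 others, a separation that the naming rule required. The contrast was -1.90 (SE 0.26, limma adjusted p = 1.50e-05). Both overexpression lines were also above WT, at 6.97 ± 0.335 FPKM in bHLH58-OE and 6.26 ± 0.777 in bHLH151-OE (SD, n = 3).

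PAxG14Ag0145200 was the 1 eligible ID above the sum. It had 10.3, 8.78 and 10.8 FPKM in WT, 3.71, 2.61 and 3.04 in bhlh58-KO, 9.69, 9.35 and 8.99 in bhlh151-KO, and 8.80, 9.48 and 9.35 in the double knockout. The double, which also lacks bHLH58, was at the level of WT and bhlh151-KO. The contrast was 1.40 (SE 0.14, limma adjusted p = 2.62e-07), and both overexpression lines were between 9.77 and 11.8 FPKM.

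The double knockout apart is the arrangement in which WT and both single knockouts share a level that the double leaves, and few IDs showed it. Of 89 called IDs, 57 were higher in the double (median 0.56) and 32 lower (median -0.48). Among all tested IDs that followed this arrangement, 323 were higher and 452 lower. The share of lower IDs among the called ones, 36% on the deposited values, was 50.6% in TPM. It was 42.3% with median-of-ratios scaling, 44.2% with equalized quantiles and 43.2% with a pseudocount of 0.1. Without double-knockout replicate 3 there were 60 higher and 60 lower IDs, and without replicate 2 there were 65 and 21. At 2-fold or more there were 4 and 3 IDs.

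NewGene_868 led 3 eligible IDs above the sum. It had 0.473, 0.760 and 0.535 FPKM in WT, 0.0994, 1.09 and 0.369 in bhlh58-KO, 1.26, 1.07 and 1.33 in bhlh151-KO, and 4.64, 5.97 and 5.55 in the double knockout. All double-knockout libraries were above 4 FPKM and all 9 others below 2, where the naming rule already required no overlap. The contrast was 1.63 (SE 0.25, limma adjusted p = 5.94e-05), and 2.55 with a pseudocount of 0.1 (limma adjusted p = 0.00273).

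PAxG01Gg0219000 was the 1 eligible ID below the sum. It had 17.3, 20.1 and 16.8 FPKM in WT, 22.7, 22.9 and 23.3 in bhlh58-KO, 27.5, 28.0 and 26.1 in bhlh151-KO, and 8.80, 6.78 and 8.02 in the double knockout. Each single loss raised it (0.34 and 0.57, limma adjusted p = 0.00878 and 2.39e-05), while the double was below WT. The contrast was -2.01 (SE 0.12, limma adjusted p = 3.68e-10).

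**Figure D5:**
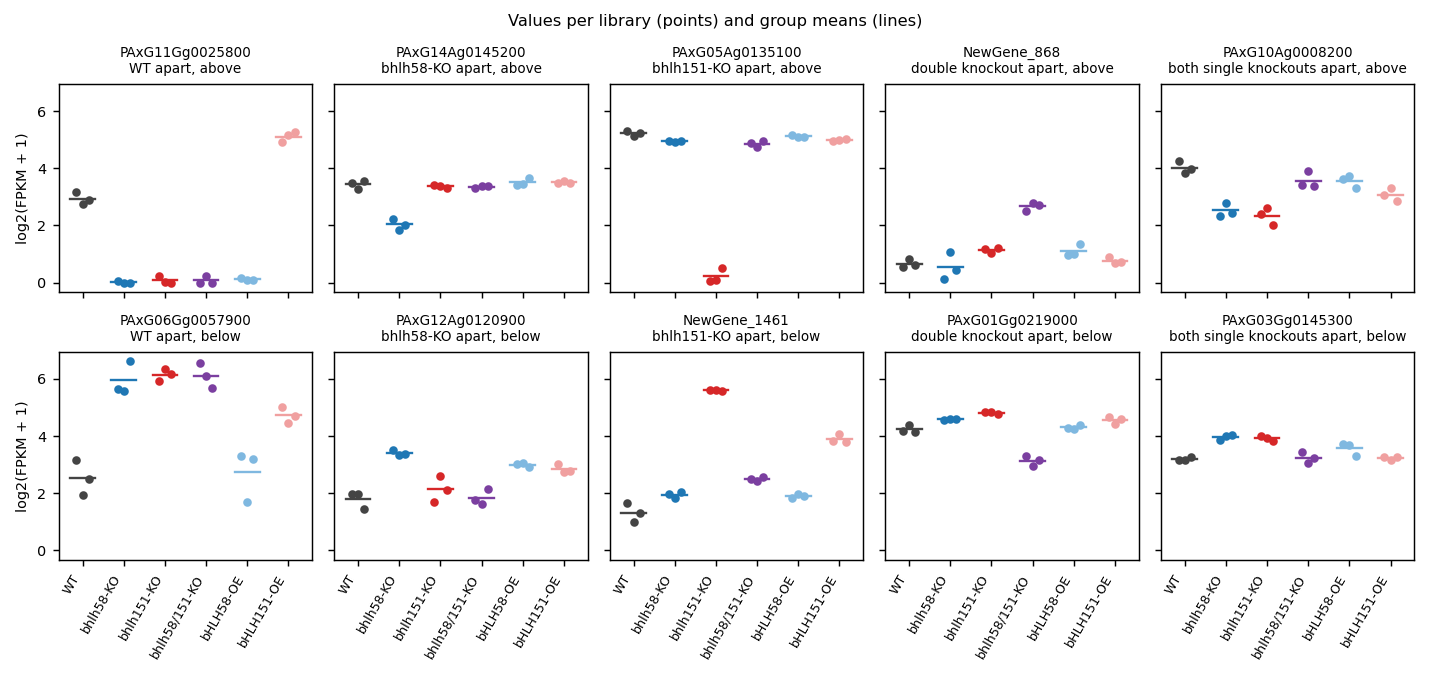
log2(FPKM + 1) of the 10 named IDs in each library (points) with group means (lines), by arrangement (columns) and sign of the contrast (rows). PAxG05Ag0135100 is near 0 in bhlh151-KO alone, and PAxG11Gg0025800 is near 0 in the 3 knockouts and bHLH58-OE and highest in bHLH151-OE.

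The called IDs, 29.3% of those tested, held a large part of the measured transcripts. As a share of the FPKM of all tested IDs, those above the sum made up 31.1% ± 0.291 in WT, 25.1% ± 0.310 in bhlh58-KO, 17.9% ± 0.396 in bhlh151-KO and 26.0% ± 0.522 in the double knockout (SD, n = 3). Those below the sum made up 20.1% ± 0.112, 25.0% ± 0.336, 34.2% ± 0.367 and 24.9% ± 0.367 in the same order. The choice of IDs fixes these directions. Abundant IDs were called more often, with a smaller error, and this by itself raises the size of these shares. In bHLH58-OE the shares were 28.9% ± 0.709 and 22.0% ± 0.367, and in bHLH151-OE 24.7% ± 0.434 and 27.6% ± 0.0720.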

How the data were processed

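The table deposited by the authors holds FPKM values, 1 for each gene ID in each of 18 libraries of root RNA; the unit is taken from its name. Not given in the sources used here are the aligner, quantifier, genome build, annotation and filters. The submitters' processing notes name DESeq2 without a version or role. Depth is unknown: among 153 pairs of libraries, ratios of values under 0.3 FPKM showed no whole-read steps (at most 1.58% in a bin of 0.02 on the log2 scale), so no count test was run.

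IDs that reached 1 FPKM in 3 or more libraries were tested on log2(FPKM + 1), a scale that understates changes of low IDs. All 18 libraries entered 1 fit across all genes with 1 mean for each group, leaving 12 residual degrees of freedom (limma 3.58.1, R 4.3.3; eBayes with trend and robust estimation, two-sided, Benjamini-Hochberg over all tested IDs, adjusted p under 0.05). The procedure was run on simulated data with independent normal noise and few planted changes, unlike these data. That run does not measure the error rate of the calls here. An arrangement is the 2-level pattern with the smallest residual sum of squares over the 4 group means. For each arrangement and sign, the text names the called ID with the largest contrast among those with a share of at least 0.9, a contrast of at least 1 (log2), at least 5 FPKM in the highest group, no group listed at 0 throughout, and no overlap between libraries of the 2 levels. The members, arrangements and rules were chosen with earlier results of these data known. Replicate numbers are shared by the groups; same-numbered libraries did not deviate together, so no block was used. Alternatives were other pseudocounts, filters, scalings, moderation and sets of libraries. Rescaling to TPM kept the pseudocount of 1 beside larger values, so it also lowered the weight of the pseudocount.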

Additional observations from a re-analysis of the deposited data

Results flagged for a closer look

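The effect of bHLH58 loss differed between the WT and bhlh151-KO backgrounds, by the test of the difference itself, in each of the 10 named IDs. This is the same test as the non-additive contrast that chose them. The log2 differences were 4.91 for PAxG05Ag0135100, 2.91 for PAxG11Gg0025800, 2.71 for PAxG10Ag0008200, 1.63 for NewGene_868 and 1.40 for PAxG14Ag0145200. They were -3.73 for NewGene_1461, -3.45 for PAxG06Gg0057900, -2.01 for PAxG01Gg0219000, -1.90 for PAxG12Ag0120900 and -1.45 for PAxG03Gg0145300. The largest adjusted p (limma) over the alternatives run was 0.00319, for PAxG06Gg0057900.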

How the results depend on the processing

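The non-additive contrast called 10617 to 11426 IDs when each of the 12 libraries was left out in turn, and 11661 to 12064 under the other alternatives that keep the same IDs. With a mean of at least 5 FPKM it called 8093 of 19535 IDs, and with no filter 11678 of 59880. No ID called on the deposited values changed sign under any alternative in which it was tested. With the replicate block 11825 IDs were called, of which 11551 were shared; deviations of same-numbered libraries correlated between -0.0480 and 0.0693, so the numbers are not taken to pair the libraries, and the block changed none of the calls of named IDs.

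With a mean of at least 5 FPKM, fewer IDs were tested and the counts were 11255 for loss of bHLH151 in WT, 100 for bhlh58-KO apart and 305 for both single knockouts apart. A minimum share of 0.8 is looser by construction and gave 2205 (WT apart), 339 (bhlh58-KO apart), 4218 (bhlh151-KO apart), 199 (double knockout apart) and 1071 (both single knockouts apart). Leaving out 1 library gave 2353 to 3794 IDs for loss of bHLH151 in bhlh58-KO, 960 to 1084 for WT apart, 127 to 176 for bhlh58-KO apart, 2075 to 2415 for bhlh151-KO apart, 71 to 120 for the double apart and 411 to 531 for both singles apart. The 10 named IDs kept their sign and call under every alternative run, except that NewGene_868 was not tested with a mean of at least 5 FPKM. Depth being unknown, the precision of low IDs is known from the spread of 3 libraries per group alone.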

Other observations

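The called IDs were found across the ID numbering at similar shares. Of the tested IDs, 29.5% of 19319 with the letter A and 29.4% of 18892 with the letter G were called, and 27.1% of 2726 NewGene IDs. Among the 38 combinations of number and letter, with 338 to 2393 tested IDs each, the share called ran from 26% to 31.6%. IDs that follow bhlh151-KO apart made up 3.78% to 7.4% of the tested IDs in these combinations.

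Among the 24 possible orders of the 4 group means, 4 held most called IDs. WT highest, then bhlh58-KO, the double and bhlh151-KO lowest held 2727 called IDs (22.7%, beside 17.4% of all tested IDs). WT, the double, bhlh58-KO and bhlh151-KO held 2124 (17.7% beside 8.11%). The orders with bhlh151-KO highest and WT lowest held 1626 (13.5% beside 7.09%) with the double second, and 1331 (11.1% beside 4.9%) with bhlh58-KO second. In these orders WT and bhlh151-KO are the extremes and the double and bhlh58-KO lie between them.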
